A study of Mus musculus with 6 samples.

Results

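The genes described here are 9 regulators of transcription and chromatin in the embryo: the corepressor Runx1t1, the chromatin remodeler Chd7, the zinc finger proteins Zfp462, Klf4, Plag1 and Osr2, the forkhead factor Foxp2, the high mobility group protein Tox and the leucine zipper repressor Bach2. They are 9 of the 56953 features of a table of raw RNA sequencing counts, and were matched to symbols by the first 18 characters of their Ensembl IDs. RNA with a poly(A) tail came from tailbuds dissected at embryonic day 9.5, the posterior end of the embryo, whose cells the labels give as NMPs (neuromesodermal progenitors), somitic mesoderm and intermediate mesoderm. Wild-type embryos gave 3 libraries, and embryos of the genotype Fgfr1 FCPG/FCPG gave the other 3. FCPG is an allele of this FGF receptor with point mutations where signaling effectors bind, and embryos homozygous for it are called the mutant below. The stage is that of the labels, while the names of the count columns carry a different number that the labels do not explain. The labels name no Cre driver or treatment in either group, and do not give litters, pooling or how many embryos made a library, so the p-values measure only the spread between these libraries. The question was which transcripts change in early mesoderm without these routes of FGF signaling.

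Sequence-specific factors such as Klf4 or Foxp2 bind short DNA motifs and recruit coactivators or corepressors. Corepressors such as Runx1t1 do not need to bind DNA themselves: they join a bound factor to histone deacetylases. Remodelers such as Chd7 use ATP to slide nucleosomes, and so change which sites are open to factors in neural crest and other embryonic progenitors.

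Many row names of the table do not match the reads counted under them, so the genes were chosen by position, on stretches selected on the levels of ubiquitous genes. Levels are given as CPM, the count scaled to the size of its library. Laid out along the chromosomes, 1063 ubiquitously expressed genes included unbroken runs at ordinary levels on chromosomes 4, 6 and 15. In these 3 stretches all 54 such genes reached 10 CPM and their median was 401 CPM. Outside them 312 of 1009 did, and the median there was 0.712 CPM. These values chose the stretches and are no test of them. Eef1a1, abundant in most cells, stood at 0.03 CPM, and none of the 6 tailbud markers listed (T, Fgf8, Tbx6, Msgn1, Cdx2 and Nkx1-2) lay in a stretch, so the labelled tissue could not be checked, nor could Fgfr1 itself. Total counts ran from 16984568 (mutant replicate 2) to 27316475 (wild-type replicate 1) per library. Wild-type replicate 1 and mutant replicates 2 and 3 carried reads under Y-linked names (583.6, 942.4 and 655.7 CPM summed). The other libraries held at most 0.598 CPM. These rows also lie outside the stretches, so their names could not be checked. Embryo sex, as used below, is read from these rows, and by this reading it was unevenly spread over the groups.

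All 9 genes lay inside the stretches: Runx1t1, Chd7, Zfp462, Klf4, Plag1, Tox and Bach2 on chromosome 4, Foxp2 on chromosome 6 and Osr2 on chromosome 15. The ubiquitous gene before Klf4 was Rad23b (1405 CPM), and with a narrower list of 994 ubiquitous genes the stretch ended at Rad23b, leaving Klf4 outside. Among the ubiquitous genes, Osr2 lay between Rpl30 (1381 CPM) and Vps13b, and Foxp2 between Ndufa4 (532 CPM) and Capza2 (619 CPM). Annotated genes that overlap a member held few reads. Averaged over the libraries, Bach2it1 and Bach2os, at Bach2, had at most 0.514 CPM, and Gm11802, at Tox, had 0.0176 CPM.

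Start-site sequences, 250 bases before to 50 after a gene's start, were found for 2 of the 9 genes in the RefSeq table, build GRCm38.p6, which is older than the build the submitters name. Both windows found are shown: that of Bach2, a gene that rose, and that of Klf4, a gene that did not pass the test. Capitals mark matches on either strand to 4 motifs, none of which contains another. The TATA box was searched as TATAAA and the CCAAT box by its own letters. The GC box, bound by Sp and Krüppel-like factors, was searched as GGGCGG. The core of sites for ETS factors, which relay MAP kinase signals, was searched as CCGGAA.
Bach2, chr4:32417185-32417484, plus strand: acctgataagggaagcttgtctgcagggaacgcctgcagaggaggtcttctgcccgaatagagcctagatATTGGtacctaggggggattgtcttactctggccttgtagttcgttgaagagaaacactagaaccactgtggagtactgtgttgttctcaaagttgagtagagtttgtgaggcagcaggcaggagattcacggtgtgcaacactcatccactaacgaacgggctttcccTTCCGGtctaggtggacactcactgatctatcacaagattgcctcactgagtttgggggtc
Klf4, chr4:55532426-55532725, minus strand: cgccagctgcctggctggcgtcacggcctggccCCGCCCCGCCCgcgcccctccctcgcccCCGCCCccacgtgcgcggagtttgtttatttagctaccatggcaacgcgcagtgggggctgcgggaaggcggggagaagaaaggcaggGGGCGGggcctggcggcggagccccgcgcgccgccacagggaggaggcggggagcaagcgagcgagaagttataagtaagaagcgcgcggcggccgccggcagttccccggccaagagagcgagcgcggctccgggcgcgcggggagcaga
The Klf4 window held 40 CpG dinucleotides and 4 GC box matches, and 96.1% of the 32851 start-site windows of the table held fewer CpG. The Bach2 window held 7 CpG, the median of the table, with 1 CCAAT match and 1 ETS core match. It lies within the Bach2 gene as GENCODE M21 draws it, so it is the window of an internal start. Of all windows, 35.7% held a GC box, 37.4% a CCAAT box, 14.9% an ETS core and 13.6% a TATA box, which neither of these had. A match describes the letters and is no binding site.

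In the mutant, Runx1t1, Zfp462 and Bach2 rose and no member fell. These are 3 of the 9 genes at an adjusted p below 0.05 (edgeR quasi-likelihood test, Benjamini-Hochberg over 14550 features), where 4.25% of all tested features were higher and 3.67% lower, 7.92% in all. On the stretches alone, 9.41% of 595 tested features were higher and 4.37% lower. At an unadjusted p below 0.05, 5 members were higher and 0 lower, where 13.1% of tested features were higher and 12.5% lower. The Wald test of DESeq2 called 3 members higher and 0 lower, where it called 5.93% of 15876 features higher and 4.83% lower. All 9 passed the filter on low counts. The median log2 fold change (mutant over wild type) of the 9 was 0.60, against -0.01 over all tested features. The genes were chosen with earlier results of these data known, so these counts describe them and are not independent evidence.

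Runx1t1, also known as ETO, is the corepressor that is fused to RUNX1 in a form of acute myeloid leukemia. Wild-type libraries held 23.2, 8.02 and 4.87 CPM (replicates 1 to 3, the order used throughout) and mutant libraries 41.9, 127.9 and 51.1 CPM. Every mutant library was above every wild-type library, and both groups were widely spread, with mutant replicate 2 far above the other 2 mutants and wild-type replicate 1 far above the other 2 wild types. The mutant mean was 6.12 times the wild-type mean, which on the log2 scale was a fitted change of 2.60 ± 0.61 (SE, adjusted p = 0.0403 by edgeR). Behind these levels were 91 to 623 counts per wild-type library and 1009 to 2271 per mutant library. The call was lost without wild-type replicate 2 or 3 or mutant replicate 1 or 2, where the log2 fold change ran from 1.95 to 2.89, and without wild-type replicate 1 it was 3.51.

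The neighbours of Runx1t1 differed from each other. Triqk, before it in chromosome order, rose from 7.62 ± 0.32 to 14.6 ± 4.5 CPM (SD, n = 3 in each group), or by 0.94 on the log2 scale (adjusted p = 0.0358 by edgeR). Otud6b, after it, had 0.11 (adjusted p = 0.639 by edgeR).

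**Figure D1:**
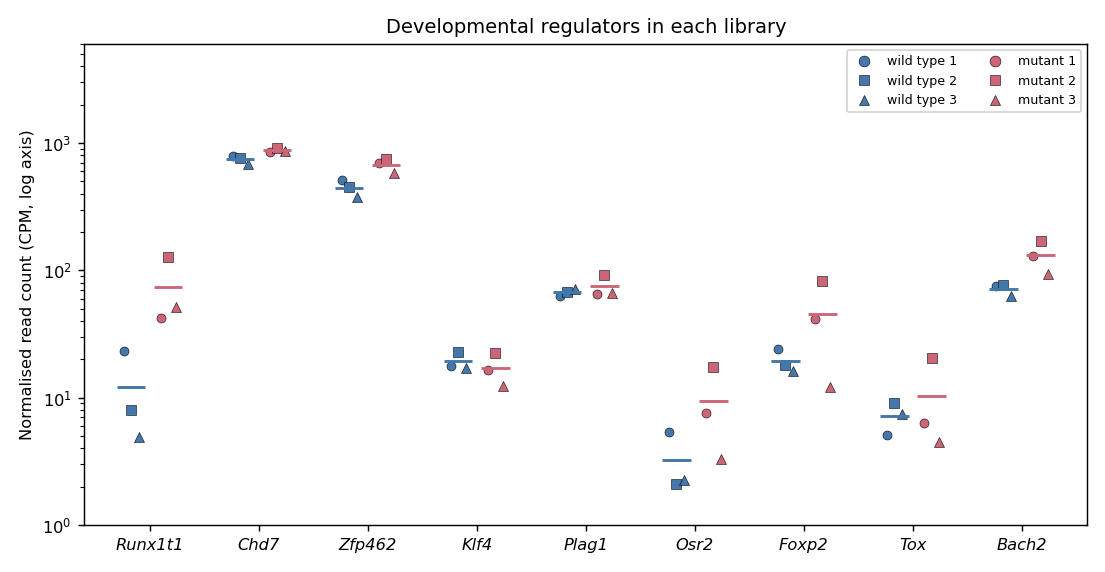
Normalised read counts (CPM, log axis) of the 9 regulators in each of the 6 libraries, with a horizontal bar at each group's mean. The groups are apart for Runx1t1, Chd7, Zfp462 and Bach2, and mutant replicate 2 (red square) is the highest library for every gene but Klf4.

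Chd7, the remodeler mutated in CHARGE syndrome, had the smallest difference of the genes whose groups were apart, and did not pass the test. Levels were 794.5, 763.2 and 686.6 CPM for wild type, and 851.7, 918 and 863.4 CPM for the mutant. The groups did not overlap, and the mutants lay close together. Its log2 fold change was 0.23 ± 0.08 (SE), with an unadjusted p of 0.0189 and an adjusted p of 0.113 by edgeR. No alternative fit called it, and its log2 fold change stayed between 0.18 and 0.29 over the libraries left out. Of its neighbours, Rab2a had 0.23 (adjusted p = 0.0809 by edgeR), and Clvs1, at 0.318 ± 0.115 CPM in wild type, rose to 2.16 ± 1.86 CPM (adjusted p = 0.0488).

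Zfp462 encodes a large protein with many C2H2 zinc fingers that is needed in the embryo and acts on chromatin. Wild-type libraries held 512.8, 449.6 and 375.8 CPM, and mutant libraries 700.8, 742.7 and 583.3 CPM. Each mutant library was above each wild-type library. The ratio of means was 1.52, and edgeR fitted 0.60 ± 0.13 (log2, SE, adjusted p = 0.0328). The call was lost in the same 4 fits as that of Runx1t1, with log2 fold changes of 0.50 to 0.60, and when embryo sex was added to the model, with 0.57 (adjusted p = 0.075 by edgeR). Its neighbours Tmem38b and Rad23b had log2 fold changes of -0.06 (adjusted p = 0.805 by edgeR) and 0.27 (adjusted p = 0.0701), neither called.

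Bach2 pairs with small Maf proteins and represses genes in lymphocytes. Its wild-type levels were 74.7, 77.2 and 62.3 CPM and its mutant levels 129.2, 171 and 92.8 CPM. The groups did not overlap, though mutant replicate 3 stood nearer to the wild types than to mutant replicate 2. The ratio of means was 1.83, with a fitted log2 change of 0.87 ± 0.20 (SE, adjusted p = 0.0387 by edgeR). Of the 6 leave-one-out fits, that without mutant replicate 3 called it (log2 fold change 1.08). In the other 5 its value ran from 0.65 to 0.93 with adjusted p of 0.0567 to 0.137 by edgeR. The term for embryo sex (log2 fold change 0.85, adjusted p = 0.0876 by edgeR) and limma-voom (log2 fold change 0.82, adjusted p = 0.0502) also ended it. Map3k7 and Casp8ap2, on either side of it, had log2 fold changes of 0.08 and 0.11.

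In all, 4 members (Runx1t1, Chd7, Zfp462 and Bach2) had groups that did not overlap, all higher in the mutant, where 15.8% of tested features were higher without overlap and 16.1% lower.

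Osr2 and Foxp2 had larger log2 fold changes than Zfp462 and Bach2, but also larger errors, and did not pass. Osr2, an odd-skipped factor of limb, palate and kidney mesenchyme, had wild-type levels of 5.40, 2.10 and 2.25 CPM and mutant levels of 7.52, 17.5 and 3.28 CPM. Mutant replicate 3 was below wild-type replicate 1, so the groups overlapped. These levels rest on 42 to 311 counts per library. Its log2 fold change was 1.51 ± 0.60 (SE, adjusted p = 0.16 by edgeR).

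Foxp2, a forkhead repressor known for its part in brain and lung development and in speech, had wild-type levels of 24.2, 17.9 and 16.1 CPM and mutant levels of 41.4, 82.7 and 12.2 CPM. Mutant replicate 3 was the lowest of all 6 libraries and mutant replicate 2 the highest, 6.80 times as high. Its log2 fold change was 1.22 ± 0.55 (SE, adjusted p = 0.209 by edgeR). Without mutant replicate 3 both passed, Foxp2 with 1.69 (adjusted p = 0.0145 by edgeR) and Osr2 with 1.94 (adjusted p = 0.0436), and without mutant replicate 2 they had 0.47 and 0.73.

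Tox, Plag1 and Klf4 gave no call in any fit. Tox, an HMG box protein of developing T cells, had wild-type levels of 5.07, 9.09 and 7.44 CPM and mutant levels of 6.32, 20.3 and 4.49 CPM. Its highest and lowest libraries were both mutant, and its log2 fold change, 0.51 with an SE of 0.52 (adjusted p = 0.583 by edgeR), went to -0.40 without mutant replicate 2.

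Plag1, a zinc finger activator of growth genes such as Igf2, had wild-type levels of 62.6, 67.1 and 71.3 CPM and mutant levels of 65.1, 92.7 and 66.2 CPM. Apart from mutant replicate 2, all libraries lay within the wild-type range. Its log2 fold change was 0.15 ± 0.15 (SE, adjusted p = 0.553 by edgeR), and -0.02 without that library. Chchd7, the next tested protein-coding gene on the chromosome, fell from 161.1 ± 19.4 to 114.3 ± 12.3 CPM, a log2 difference of -0.50 (adjusted p = 0.043 by edgeR).

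Klf4, a Krüppel-like factor of epithelia and a reprogramming factor for pluripotency, was the only member with a negative value. Its wild-type levels were 17.7, 22.9 and 17.1 CPM and its mutant levels 16.5, 22.4 and 12.4 CPM. The groups overlapped, and the log2 fold change was -0.18 ± 0.22 (SE, adjusted p = 0.657 by edgeR), or 0.03 without mutant replicate 3.

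**Figure D2:**
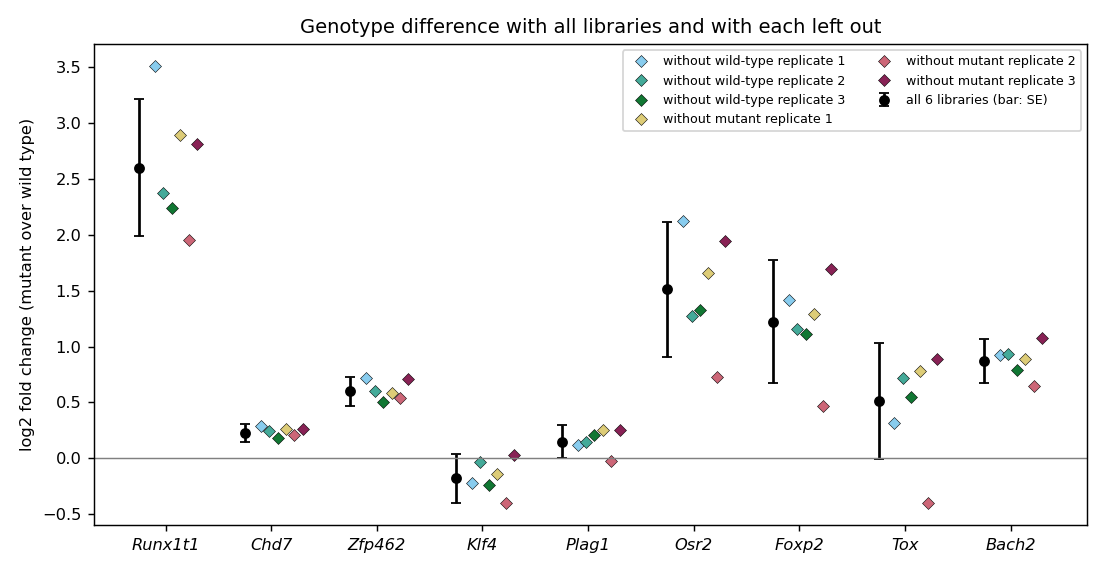
The log2 fold change (mutant over wild type) of each regulator with all 6 libraries (black, bar: SE) and with each library left out (coloured diamonds). Without mutant replicate 2 the values of Foxp2, Osr2 and Tox drop to 0.47, 0.73 and -0.40, while Chd7 and Zfp462 have 0.21 and 0.54. Over all 6 libraries left out in turn, Chd7 and Zfp462 stay within 0.18 to 0.29 and 0.50 to 0.72.

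Mutant replicate 2 was the highest of the 6 libraries for 8 of the 9 genes, against 22.9% of all tested features (14550). It was the lowest library for 0 of the 9 genes, against 21.3% of tested features, and had the smallest total count. Its level was 3.76 times the mean of the other 2 mutants for Tox, 3.24 times for Osr2, 3.09 times for Foxp2 and 2.75 times for Runx1t1, but 1.07 times for Chd7 and 1.16 times for Zfp462. The median of this ratio was 1.55 over the 9 genes and 1.01 over the tested features. Over the mutants, the highest library exceeded the lowest 1.08 times for Chd7 and 1.27 times for Zfp462, and 4.52 times for Tox, 5.35 times for Osr2 and 6.80 times for Foxp2. Klf4, at a CPM level similar to that of Foxp2 in wild type, spread 1.81 times. Whether a trait of this library moved these genes together was not tested.

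Divided by the exon length of the gene models, the wild-type levels fell into 3 groups. Chd7 was the most abundant, at 54.3 ± 4.0 CPM per kb (SD, n = 3), followed by Zfp462 at 41.7 ± 6.4 CPM per kb, with no overlap between the 2. Plag1 (7.90 ± 0.51 CPM per kb), Bach2 (7.18 ± 0.80) and Klf4 (6.31 ± 1.04) came next, each overlapping its neighbour in the order. Runx1t1 (1.51 ± 1.23 CPM per kb), Foxp2 (1.19 ± 0.26), Tox (0.946 ± 0.266) and Osr2 (0.897 ± 0.515) were lowest and overlapped each other. In the mutant, Runx1t1 stood at 9.25 ± 5.93 CPM per kb and Bach2 at 13.2 ± 3.9, and Chd7 and Zfp462 at 63.7 ± 2.6 and 63.1 ± 7.7.

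Beside these genes, other regulators of the same stretches moved both ways. Of 27 genes listed as transcription factors, 23 lay on the stretches and 22 were tested: 3 rose and 1 fell, and the median log2 fold change was 0.08. Of 16 genes listed as cofactors, 15 were tested: 2 rose and 1 fell, with a median of 0.09. Both lists were broad, and not every gene in them is an established regulator of transcription. The shares over all tested features were 4.25% higher and 3.67% lower, and over the 595 tested features of the stretches 9.41% higher and 4.37% lower.

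The factors that rose were Pou3f2, Prdm13 and Zfp292. Pou3f2, a POU factor of neural progenitors, had wild-type levels of 11.7, 7.21 and 4.23 CPM and mutant levels of 49.8, 305.6 and 20.8 CPM (4.01 ± 0.95 on the log2 scale, SE, adjusted p = 0.0411 by edgeR). Prdm13, a zinc finger factor of spinal cord and retinal neurons, had 1.64, 0.0368 and 0.214 CPM in the wild types and 31.1, 38.1 and 1.37 CPM in the mutants, where replicate 3 was within the wild-type range (5.14 ± 1.27 on the log2 scale, SE, adjusted p = 0.0457 by edgeR). Both were highest in mutant replicate 2. The zinc finger gene Zfp292 was less spread: its mean went from 277.3 ± 14.3 to 405.6 ± 56.3 CPM (SD, n = 3 per group), with a log2 fold change of 0.55 (adjusted p = 0.0223 by edgeR). Dlx6, a homeobox factor of limb and face, fell from 20.4 ± 6.9 to 8.18 ± 2.64 CPM (adjusted p = 0.0413 by edgeR). The most abundant genes of this list without a call were Nfx1, with a log2 fold change of 0.22 (adjusted p = 0.0904 by edgeR), and Zfr, with -0.10 (adjusted p = 0.601).

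Among the cofactors, the nuclear receptor coactivator Pnrc1 rose from 217 ± 9.1 to 460.5 ± 58.9 CPM (adjusted p = 0.00389 by edgeR) and was called in all 14 alternative fits, including each library left out. Phf14, a PHD finger protein that reads histone H3, rose from 351 ± 15.6 to 441.2 ± 24.3 CPM (adjusted p = 0.0371 by edgeR). Ccnc, the cyclin of the Mediator kinase module, fell from 117.9 ± 13.9 to 80.7 ± 5.6 CPM (adjusted p = 0.0249 by edgeR). The most abundant cofactors without a call were Anp32b, with a log2 fold change of 0.11, and Sub1, with -0.02. Over the libraries left out in turn, Zfp292 kept its call in 4 of 6 fits, Ccnc in 3, Pou3f2 and Dlx6 in 2, and Prdm13 and Phf14 in 1. Each was lost without wild-type replicate 2 and without wild-type replicate 3, Pou3f2, Prdm13 and Phf14 also without wild-type replicate 1, and all but Zfp292 without mutant replicate 1. Prdm13 and Dlx6 lost theirs without mutant replicate 2 as well, and Phf14 without mutant replicate 3 and with the replicate number as a block. The term for embryo sex ended every one of these calls but that of Pnrc1, and limma-voom those of Pou3f2, Prdm13 and Dlx6. With the term for sex, the calls over all tested features also went from 1152 to 537. Whether sex has a part in the lost calls was not tested.

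**Figure D3:**
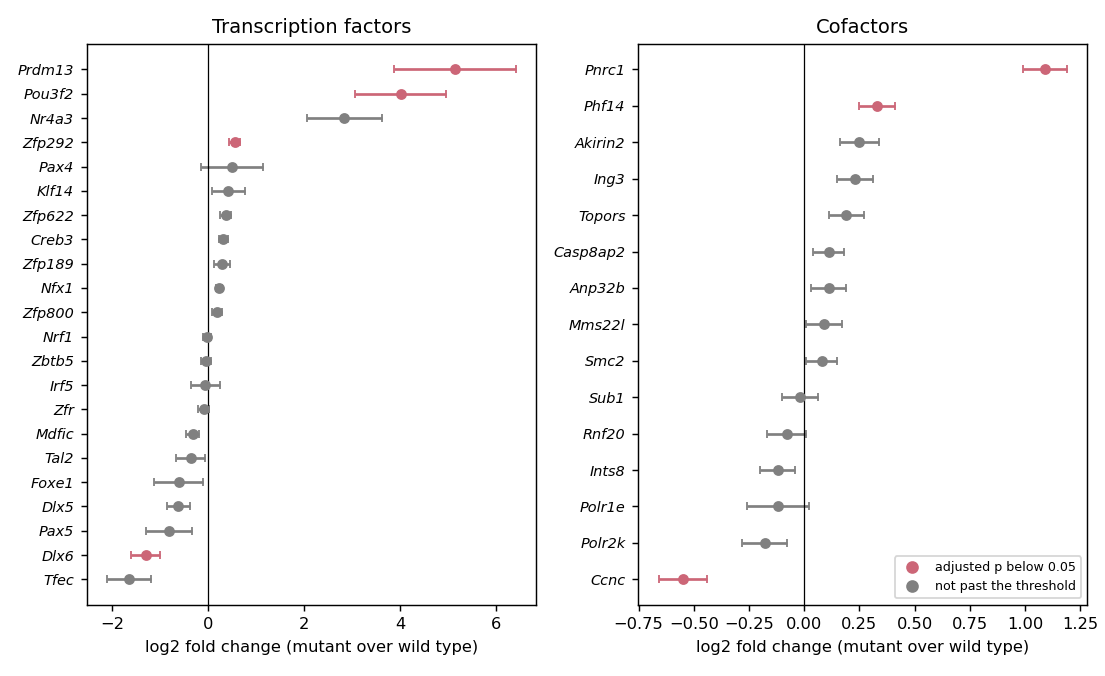
The log2 fold change (mutant over wild type, bar: SE) of the 22 tested genes listed as transcription factors and 15 listed as cofactors on the stretches, red where the adjusted p is below 0.05. Both lists hold called genes on either side of 0, from Prdm13 at 5.14 to Dlx6 at -1.31 among the factors and from Pnrc1 at 1.09 to Ccnc at -0.55 among the cofactors.

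Some markers of other cell types differed between the genotypes too, as far as their names could be read, while others in the same lists did not. In whole tailbuds, a change in how many cells of a type are present cannot be told apart from a change of RNA per cell. Of the 6 listed endothelial and mesenchymal markers, 4 were readable and tested and 2 rose, Cav1 and Col1a2. Their sum ran from 298.2 to 369.9 CPM in wild type and stood at 496.6, 1225 and 635 CPM in mutant replicates 1 to 3. In mutant replicate 2, the library that was highest for the 8 regulators, Col1a2 alone gave 924.4 CPM of it. Without Col1a2 the sum ran from 96.3 to 158.5 CPM in wild type and stood at 213.9, 300.6 and 60.7 CPM in the mutants, so the groups overlapped. Col15a1 had a log2 fold change of -0.25 (adjusted p = 0.763 by edgeR). Of the 9 neural markers, 6 were readable, 5 were tested and 1 rose, Pou3f2. Their sum ran from 914.6 to 1053 CPM in wild type and from 969.8 to 1355 CPM in the mutant, with Nxph1 at 0 in 5 of the 6 libraries. Pou3f2, also one of the factors above, gave 305.6 CPM of the 1355 CPM in mutant replicate 2. Without it the sums were 910.4 to 1041 CPM in wild type and 949 to 1067 CPM in the mutant, highest in replicate 1. Basp1, the most abundant, made up most of these sums and had a log2 fold change of -0.12 (adjusted p = 0.46 by edgeR). Without Basp1, but with Pou3f2, the sums were 98.8 to 137.5 CPM in wild type and 222.2, 543.2 and 248.8 CPM in the mutants. The groups did not overlap there. Ptprz1 and Epha7 had log2 fold changes of 0.81 and 1.17 (adjusted p = 0.15 and 0.201 by edgeR), and Gpr37 had -0.07, none called. Of the 8 erythroid markers, 4 were readable, 3 were tested and 2 fell, Hemgn and Tspan33, and the sum was 127.2 to 200 CPM in wild type against 41.4 to 56.3 CPM in the mutant. Bpgm, the red cell bisphosphoglycerate mutase, reached at most 0.112 CPM in any library, and whether this row name fits its reads was not tested. The 2 readable epithelial markers, of which Esrp1 was tested and not called and Cdh17 was near 0, summed to 136 to 174.2 CPM in wild type and to 71.7 to 125.7 CPM in the mutant. The part of these cells, and of embryo sex, in the changes of the 9 regulators was not tested, beyond the fit with a term for sex, in which Runx1t1 was called and Zfp462 and Bach2 were not.

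**Figure D4:**
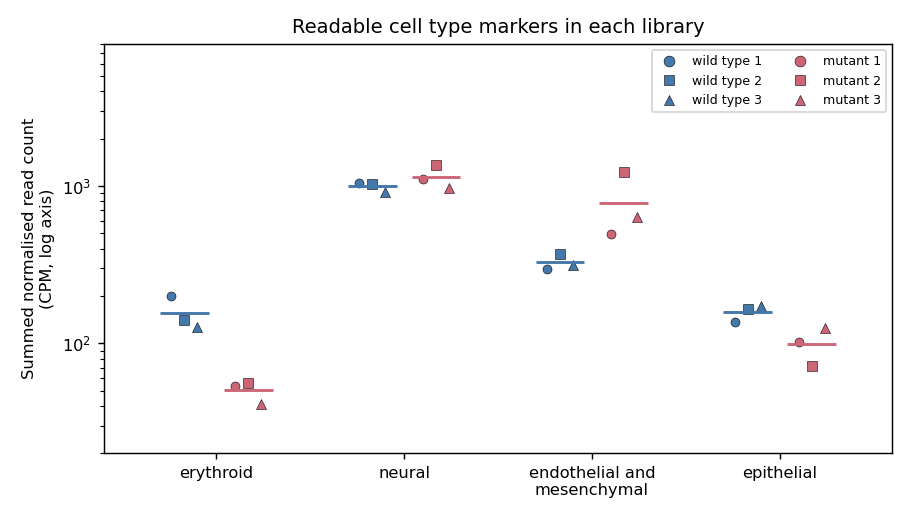
Summed normalised read counts (CPM, log axis) of the readable erythroid, neural, endothelial and mesenchymal, and epithelial markers in each library, with a bar at each group's mean. Erythroid sums are 41.4 to 56.3 CPM in the mutants against 127.2 to 200 CPM in wild type, and the endothelial and mesenchymal sum of mutant replicate 2 is 1225 CPM, of which Col1a2 is 924.4 CPM.

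The authors' deposited table gave the same 3 members an adjusted p below 0.05, where 6.69% of the features it gives an adjusted p were higher and 5.39% lower. In the authors' deposited table the log2 fold changes were 2.62 for Runx1t1, 0.61 for Zfp462 and 0.88 for Bach2. For Osr2, Foxp2 and Chd7 the authors' deposited table gave 1.54, 1.23 and 0.24, with adjusted p of 0.209, 0.314 and 0.136.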

How the data were processed

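For each of 6 libraries the authors deposited raw counts by Ensembl ID. A stranded Illumina mRNA kit was used, per the labels. Bowtie, featureCounts, DESeq2, DESeq and mm39 are listed in the submitters' processing notes, while versions and strand setting are not given in the sources used here. Columns were matched to samples by genotype letters and final number; a middle number in their names differs from the labelled stage and was not used. The authors also deposited a table with, per the file headers, a mean normalized count (signal), a log2 fold change with its error, a Wald score, and a p-value with its adjusted p-value, used only for comparison.

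Of 56953 IDs, 52029 matched a symbol, with 98.7% of counts. Gene order came from GENCODE M21 (an older build). A 2-state hidden Markov model over 1063 ubiquitous genes (detected at 10 CPM; chance of detection 0.95 or 0.25, of change 0.03; posterior above 0.95; at least 6 genes) gave the stretches. The list was widened after seeing the data.

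Counts were tested with edgeR 4.0.16 in R 4.3.3 (quasi-likelihood F test, filterByExpr, TMM), checked on simulated data. CPM uses TMM-scaled library sizes. The SE of an edgeR log2 fold change is its size divided by the square root of F. Alternatives used DESeq2 1.42.0 and limma 3.58.1, other filters and terms, and each library left out. Members and lists were chosen with earlier results of these data known. All 9 members are described, with the called genes of both lists and the 2 most abundant uncalled ones of each. Libraries of one number were checked for shared deviations from their group means (correlations -0.23, -0.01 and -0.01), so the numbers were not taken to pair them.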

Additional observations from a re-analysis of the deposited data

How the results depend on the processing

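With 3 libraries a group, the calls rest on few samples. Over the leave-one-out fits there were 0 to 5 members higher and 0 to 0 lower, 1 to 7 of the other regulators higher and 0 to 2 lower, and 66 to 783 features higher and 63 to 565 lower over the whole table. No member was called without wild-type replicate 2 or 3 or mutant replicate 1 or 2. The uncalled log2 fold changes of Plag1 and Tox went to -0.02 and -0.40 without mutant replicate 2 and ran up to 0.25 and 0.89 without another library, and that of Klf4 ran from -0.40 to 0.03, the latter without mutant replicate 3. With no filter on low counts, 5 members were higher (Foxp2 and Osr2 joined), 5 other regulators were lower, and 1352 features were higher and 1145 lower. The log2 fold changes of Foxp2 and Osr2 hardly moved there (1.23 and 1.53, against 1.22 and 1.51 with the filter). Their SE fell from 0.55 and 0.60 to 0.15 and 0.23, though the groups of both overlap, so these 2 calls add no support. With a term for embryo sex, 1 member and 1 other regulator were higher, 0 other regulators were lower, and 273 features were higher and 264 lower. With limma-voom, 3 other regulators were higher and 1 lower. The DESeq2 Wald test called 941 features higher. The cause was not tested, except that fits with a library left out hold fewer samples. With the replicate block, 3 members, the same as without it, were higher and 0 lower, and 4 other regulators were higher and 3 lower. DESeq2's size factors, the stricter filter, library sizes without mitochondrial and erythroid genes and, chosen after seeing the data, a detection minimum of 20 CPM for the stretches gave counts of members and other regulators within 1.5 times of those reported (3 members higher, 5 other regulators higher and 2 lower). The narrower list of ubiquitous genes, also chosen after seeing the data, left 8 members inside, 3 of them higher.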
